A study of Mus musculus with 768 samples.

Results

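Of the 768 wells in a Smart-seq2 table of sorted mouse cells, 16 held more than 6000 genes with a count, and every mouse had 2 of them. These many-gene wells were chosen by 3 limits on the well itself. Its total had to reach 50000 counts, the genes detected had to exceed 6000, and genes of the mitochondrial genome could take no more than 15% of the total. They are compared here with 658 single-cell wells, which met the same limits on counts and mitochondrial genes and had 1000 to 6000 genes. The other 94 wells fell outside the limits. The number of genes is what selected the 16 wells, so it is given as a description.

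All mice carried the Nestin:GFP reporter, in which green fluorescent protein follows the promoter of Nes, an intermediate filament gene of neural stem cells that vascular cells also use. They were males of 2 months, and cells positive for the reporter were sorted from the dentate gyrus, a hippocampal region in which adult rodents form new neurons. Control mice 1, 3, 5 and 7 received a negative control oligonucleotide, and mice 2, 4, 6 and 8 received a mimic of the microRNA miR-132. Both groups were given 150 pmol in lipofectamine 2000 each week for 5 weeks. The sort of 17 April used mice 1 to 4 and that of 19 April used mice 5 to 8, so each date had 2 mice of each treatment. The series text puts "AD" before the tissue without giving its meaning.

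A microRNA is a short RNA that guides a silencing complex to messenger RNAs, mainly through pairing of its seed, bases 2 to 8, with sites in their 3' ends. Paired messengers are translated less and are often degraded. miR-132 is induced by neuronal activity and has been studied for its part in dendrite growth and plasticity. The mature strands are shown because the mimic copies this microRNA, with the seed in capitals and with coordinates on GRCm38.p6 from RefSeq, plus strand, chr11:75173723-75173744 for the 3p strand and chr11:75173686-75173707 for the 5p strand.
mmu-miR-132-3p: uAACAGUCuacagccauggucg
mmu-miR-132-5p: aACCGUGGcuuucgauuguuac
The seed of the 3p strand pairs with GACTGTT, and the 8-base site GACTGTTA adds an A after it. Among published targets of miR-132, the sites of 3 genes are printed with their surroundings, the 8-base site in capitals, from GENCODE M21 transcripts of mm10. They are Ep300, a histone acetyltransferase, at chr15:81652016-81652023 on the plus strand, Foxo3, a forkhead transcription factor, at chr10:42186162-42186169 on the minus strand, and Zeb2, a zinc finger repressor, at chr2:44987246-44987253 on the minus strand. All 3 sites lie in the 3' UTR.
Ep300: atcactgtataGACTGTTAaattt
Foxo3: aacccagcagaGACTGTTAgcagc
Zeb2: acctcaagaggGACTGTTAaatac

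The 16 wells stood far from all others in gene number at ordinary depth. They had 10045 to 11362 genes (median 10694), and the well with the most genes among the rest had 5015, in mouse 3 at 207023 counts. The next had 4731. Their counts ran from 513002 to 1027611 (median 751756), against 61342 to 1116183 (median 644912) in single-cell wells, so the ranges of counts overlapped. The limits themselves keep the gene ranges apart at 6000, while the gap from 5015 to 10045 genes was not set by them. No well over 6000 genes failed the other limits. Per the labels' protocols, the same amount of cDNA per cell entered each library, so counts do not follow the amount of RNA in a well. Mitochondrial genes took 1.87% to 3.17% of counts, with medians of 2.40% here and 2.02% in single-cell wells. The 18S ribosomal RNA entry Rn18s-rs5 took 4.67% to 8.26% (single-cell median 10.7%), and the 50 most abundant genes 23.2% to 31.9% (single-cell median 36.99%).

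**Figure D1:**
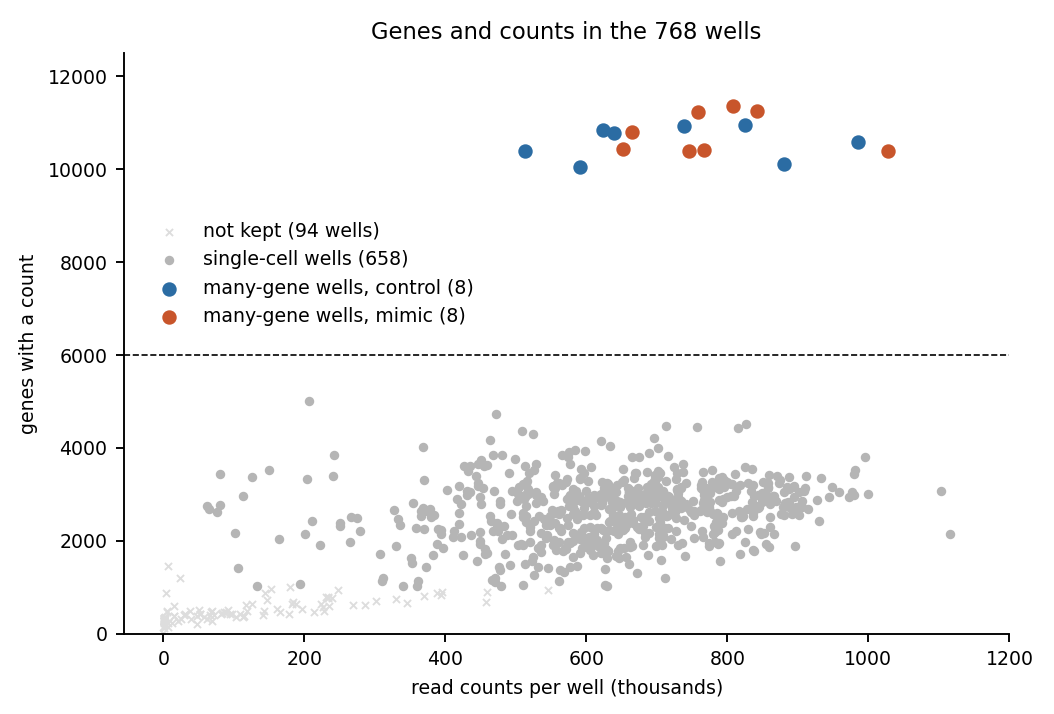
Genes with a count against read counts for each of the 768 wells, with the 6000-gene limit as a dashed line. The 16 many-gene wells lie between 10045 and 11362 genes over the same range of counts as the 658 single-cell wells, whose highest has 5015.

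All 16 wells lay at the same places of their mouse's block of 8 rows and 12 columns. They were in row 5, at columns 4 and 9. The labels speak of 94 sorted cells a mouse, while the table has 96 wells a mouse, and they do not say what was put in these 2 wells. On the plates every control well of this kind was in row I and every mimic well in row J, so plate row and treatment cannot be told apart. The mouse of a well was taken from the sample descriptions that name it. By the alternative reading, in which a well belongs to the sample that bears its name as title, the 16 wells would fall on 3 mice (4 on mouse 1, 8 on mouse 2 and 4 on mouse 6), with 1 control mouse only, so no treatment test could be run.

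The gene numbers that chose the wells were set beside those of sums of single-cell wells, as a description. With every well and sum brought to 513002 counts by expectation, 14 to 26 single-cell wells of the same mouse (median 20) had to be added, in plate order or in reverse, to reach the mean gene number of its many-gene wells. At that depth the 2 wells of a mouse averaged 9972 genes (mouse 7) to 10688 genes (mouse 5). The sum of all 72 to 90 single-cell wells of a mouse held 12913 (mouse 7) to 13441 genes (mouse 6) at the same depth. Both values lie apart, with every many-gene mean below every single-cell sum.

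Control mice averaged 10585.5 ± 223.9 genes per many-gene well and mimic mice 10787 ± 122.04 (SD, n = 4 mice each), given without a test because gene number chose the wells. Counts per well were 724582 ± 150062 and 783298 ± 102196 (two-sided exact permutation p = 0.429, n = 4 each; the smallest p that 70 arrangements of 4 against 4 mice allow is 0.0286), and the 18S share was 6.73% ± 0.741 and 5.97% ± 0.540 (exact permutation p = 0.143, n = 4 each).

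The wells carried markers of several cell types at once. At least 50% of the markers of a type reached 50 CPM (counts scaled to a common library total) for oligodendrocytes and for astrocytes in 16 of 16 wells (100%, exact Clopper-Pearson 95% interval 79.4% to 100%), and for endothelial cells and for pericytes in 15 of 16 each (93.8%, 69.8% to 99.8%). All 4 types passed together in 14 of 16 wells, and 3 types in the other 2. Among single-cell wells 593 of 658 had 1 of the 4 types (90.1%, 87.6% to 92.3%), 61 had none, 4 had 2, and none had 3 or 4, which allows a share of up to 0.559% by the same interval. These intervals cover counting error only.

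Oligodendrocyte genes made up the largest marker signal. The 9 markers, among them the myelin genes Mbp and Cnp, summed to between 32050 and 74930 CPM per well (median 59160). Mbp, myelin basic protein, was at 6116 to 13000 CPM. Every marker of this list had a count in all 16 wells. Summed per mouse, the list was at 58900 ± 7093 CPM in many-gene wells and 47150 ± 10600 CPM in single-cell sums (SD, n = 8 mice), with a median log2 ratio of 0.27 and a higher value in many-gene wells in 7 of 8 mice. Where a well holds more than 1 cell, more cells of a type and more RNA per cell cannot be told apart.

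Vascular markers varied more. The endothelial list, led by the tight junction gene Cldn5 and by Ly6a and Itm2a, reached up to 6289 CPM per well (median 2306). Per mouse it was at 2611 ± 1165 CPM in many-gene wells and 4531 ± 2221 CPM in single-cell sums, and it was lower in many-gene wells in 7 of 8 mice (median log2 ratio -0.81). Only mouse 1 had the reverse order, at 1529 and 1492 CPM. The pericyte list, with the matrix protein Vtn, the signalling regulator Rgs5 and the potassium channel Kcnj8, ranged from 393 to 14660 CPM per well. By mouse it was at 2061, 3620, 1206 and 1428 CPM in mice 1 to 4 and at 7485, 8222, 11750 and 9406 CPM in mice 5 to 8, so the sort dates did not overlap. Single-cell sums of the same mice were at 3859 to 5847 CPM on 17 April and 6945 to 16590 CPM on 19 April, without overlap either.

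Astrocyte markers, led by the glutamate transporters Slc1a3 and Slc1a2 and by Aldoc, a glycolytic enzyme, ranged from 766 to 7250 CPM per well. The wells of mouse 1 were at 770 and 6526 CPM and those of mouse 5 at 2329 and 1558 CPM, so wells of 1 mouse could differ as much as mice did. The oligodendrocyte precursor list was at 813 to 3511 CPM, mostly from Olig1, a transcription factor of the whole lineage (717 to 2328 CPM). Pdgfra, the growth factor receptor that defines precursors, had a count in 12 of 16 wells (median 31.8 CPM). Neuroblast markers summed to 274.4 to 1576 CPM, of which the widely expressed Stmn1 gave 122.7 to 436.5 CPM. Dcx and Neurod1, which mark young neurons, each had a count in 9 of 16 wells.

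Markers of other cell types were low in most wells and higher in a few. Fibroblast markers ran from 0 to 1327 CPM per well (median 58.2), with the highest in mouse 7. Smooth muscle markers ran from 0 to 677.1 CPM (median 56.87, highest in mouse 5), and intermediate progenitor markers from 0 to 661.6 CPM (median 25.45, highest in mouse 4). Of the microglia list, Cx3cr1 and Csf1r were at 0 throughout. Among mature neuron markers Slc17a7 and Gad2 were at 0, and the list reached at most 126.1 CPM in a well. Haemoglobin and Alas2 summed to at most 9.02 CPM in any many-gene well. The single-cell sums of mice 6 and 7 were at 1776 and 1209 CPM for these blood genes, against at most 2.81 CPM in the other mice. Stem cell genes were present at low level. Nes, the gene of the reporter, was at 20.3 to 142.1 CPM in 16 of 16 wells, Hopx, a marker of quiescent stem cells that astrocytes share, in 12 wells (median 6.62 CPM), and Sox2 in 15 wells (median 8.07 CPM). Prox1, a transcription factor of granule neurons that oligodendrocytes also express, was at 79.8 to 233.1 CPM in all wells.

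**Figure D2:**
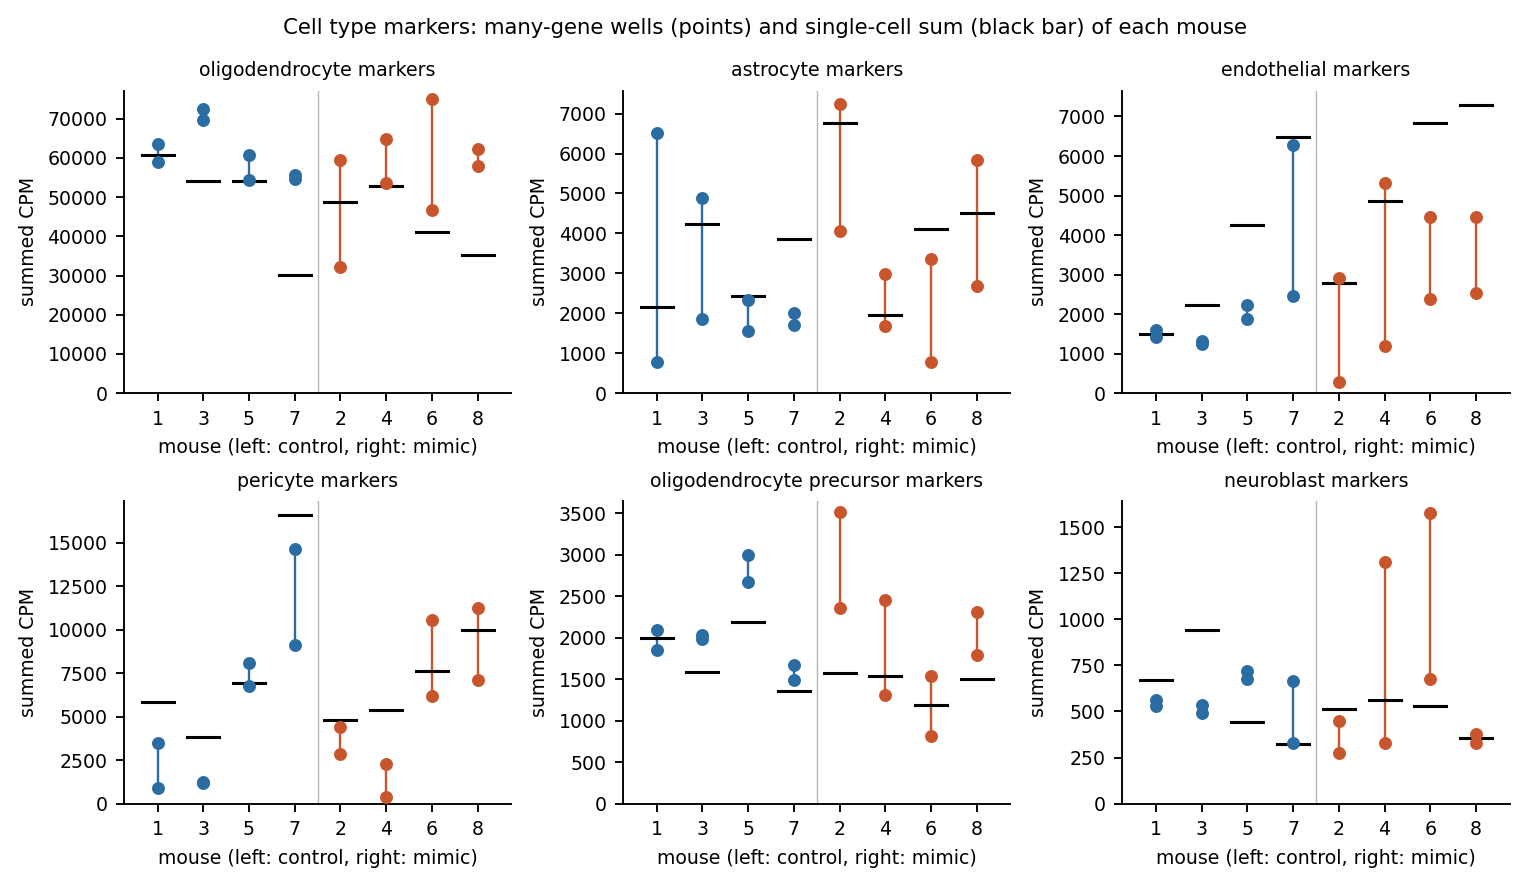
Summed CPM of 6 marker lists in the 2 many-gene wells (joined points) and in the sum of single-cell wells (black bar) of each mouse, control mice in blue and mimic mice in orange. Pericyte markers of mice 1 to 4 lie below those of mice 5 to 8 in both kinds of wells, while astrocyte markers can differ widely between the wells of 1 mouse.

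Whether the wells followed the makeup of their own mouse was examined over 8 mice for 12 marker lists. The endothelial level of many-gene wells and single-cell sums (log2 of summed CPM) had Pearson r = 0.907 (exact permutation p = 0.00243, adjusted p = 0.0234 over 12 lists) and Spearman rho = 0.905 (exact permutation p = 0.00456, adjusted p = 0.0274). Without mice 1 and 3, farthest from the median, r was 0.919. Within 17 April r was 0.822 and within 19 April 0.858, over 4 mice each. With values centred within dates, r was 0.806 and the exact permutation test over mice of a date no longer passed after adjustment (adjusted p = 0.181). Leaving out mouse 4, 5, 6, 7 or 8 in turn gave r from 0.893 to 0.923 and adjusted p from 0.0571 to 0.0952 (exact permutation). With each marker given the same weight, as the mean of log2(CPM + 1), r was 0.811 and did not pass (exact permutation, adjusted p = 0.191).

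The radial glia-like list had r = 0.898 (exact permutation p = 0.00389, adjusted p = 0.0234) and rho = 0.905 (exact permutation p = 0.00456, adjusted p = 0.0274), and r was 0.913 without mice 2 and 6. Lpar1, a lysophosphatidic acid receptor, gave most of that sum, at 121.8 to 403.5 CPM per well. It had a count in 41.95% of single-cell wells, and Wnt8b of the same list had none in the 16 wells. As the mean of log2(CPM + 1) over the markers, which gives each marker the same weight, r was 0.570 (exact permutation, adjusted p = 0.691). With single-cell wells weighted equally r was 0.868 (exact permutation, adjusted p = 0.0598). Within dates r was 0.752 and 0.925 over 4 mice each. Leaving out mouse 3, 4, 5, 6, 7 or 8 in turn gave r from 0.877 to 0.922 and adjusted p from 0.0571 to 0.0952 (exact permutation), and centring within dates gave r = 0.842 and adjusted p = 0.181 (exact permutation).

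No other list passed. Oligodendrocyte markers had r = 0.181 (exact permutation p = 0.665), astrocyte markers r = 0.447 (exact permutation p = 0.250) and oligodendrocyte precursor markers r = 0.727 (exact permutation p = 0.0365, adjusted p = 0.146), the last falling to 0.233 without mice 5 and 6. For pericyte markers no r over 8 mice is given, because the dates formed separate clusters of 4 mice each.

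Gene levels in a many-gene well were correlated across genes with those of other wells and of single-cell sums. Over 7340 genes with a mean of at least 20 CPM, log2(CPM + 1) of 2 wells of the same mouse had r of 0.472 to 0.555 (median 0.524, 8 pairs). Pairs from different mice had medians of 0.508 on the same date (48 pairs) and 0.486 across dates (64 pairs). A well and its own mouse's single-cell sum had r of 0.611 to 0.677 (median 0.653, 16 pairs). With the sum of another mouse r was 0.512 to 0.69 (median 0.623), so both ranges overlapped. The sum of both wells and the single-cell sum of the same mouse reached 0.727 to 0.774 (median 0.759). A single-cell sum held 42428800 to 65027554 counts from 72 to 90 wells and a many-gene well 513002 to 1027611 counts, so depth differed between the kinds of pairs, and its part in r was not tested. These correlations are across genes, which are not independent replicates, and all pairs share gene length and base composition.

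After the mean of the 8 mice was removed from each gene, the deviations of a mouse's many-gene sum had r of 0.029 to 0.247 with its own single-cell sum (median 0.129) and -0.177 to 0.142 with those of other mice (median -0.016). In 5 of 8 mice the own single-cell sum gave the highest r, for mouse 8 at 0.1106 against 0.1097 with mouse 7 of its date. The other mice were pooled over sort dates. Their highest r was within a date (mouse 3 with mouse 1) and their lowest across dates (mouse 3 with mouse 7), though mouse 5 had 0.1129 with mouse 1 across dates. Removing the mean of the 8 mice also lowers r with other mice by construction. The parts of mouse, date and centring in these values were not tested.

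Gene levels varied between the wells of a mouse. Among 1857 genes with a mean of at least 100 CPM, the median SD between wells of a mouse was 0.55 on the log2 scale, while counting error alone at the mean count, with reads taken as independent, would give a median of 0.13. The SD over all 16 wells had a median of 0.58. The mean square between mice exceeded that within mice in 57.3% of these genes, with a median ratio of 1.14.

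The genes that differed most between wells of a mouse were markers of astrocytes, precursors and vessel walls, except for the metabolic enzyme gene Acsl6. Igf2, a growth factor of meninges and vessel walls (chr7:142650766-142666816, minus strand, mm10), was at 653 and 0 CPM in the wells of mouse 1, and at 36.01 and 493.8 CPM in those of mouse 8. Its median absolute log2 difference was 3.38. Gfap, the astrocyte filament gene, was at 416 and 30.9 CPM in mouse 2 (median difference 2.96), Acsl6, a fatty acid ligase, at 13.7 and 284.7 CPM in mouse 1 (2.85), and Aqp4, the astrocyte water channel, at 599 and 45.6 CPM in mouse 2 (2.62). Gpr17, a receptor of oligodendrocyte precursors about to differentiate, was at 1698 and 111.1 CPM in mouse 1 and had a count in 11 of 16 wells (2.56). Single-cell wells with a count of these 5 genes made up 11.7% to 17.8% of the 658.

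A gene found in many-gene wells was nearly always found in single cells too. The 16 wells together held 19663 genes and the single-cell wells 31392. In all 16 wells 4533 genes had a count, 23.1% of those found, and 3709 had a count in 1 well only. Of genes with a count in a many-gene well, 507 had none in any single-cell well, and the widest of these was in 4 of 16 wells. Of the 4533 genes, 15 had a count in under 10% of single-cell wells, led by 2310039H08Rik (7.14% of single-cell wells, 4.87 to 34.4 CPM in many-gene wells), the sorting nexin Snx9 (7.75%), Foxred2 (8.21%), the protocadherin Pcdh11x (8.66%) and the mitochondrial transcription factor Tfb1m (8.97%).

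Gene levels in the many-gene wells were set beside those in the single-cell sums, for 10059 genes with a mean of at least 10 CPM in either kind. The median log2 ratio of CPM + 1 was -0.001, which scaling to a common total holds near 0. A higher level in many-gene wells in 8 of 8 mice with a median log2 ratio of at least 1 was found for 4 genes (0.0398%), and a lower level in 8 of 8 mice with a median of at most -1 for 62 genes (0.616%). The wells were chosen within this contrast, by their number of genes, so it has no test. With TMM scaling the median of all genes moved to -0.19, 2 genes were higher and 1.16% of genes were lower.

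The 4 higher genes were Onecut2, a homeobox transcription factor (14.3 ± 4.49 against 4.32 ± 1.46 CPM, SD, n = 8 mice), Tma16 (28.3 ± 7.52 against 11.1 ± 5.85 CPM), Pcdh11x (42.9 ± 17.5 against 17.8 ± 4.65 CPM) and Mbip (43.2 ± 19.2 against 17.9 ± 8.69 CPM). They had a count in 13 to 16 many-gene wells and in 4.26% to 20.7% of single-cell wells. Among genes at 50 CPM or more in either kind, the highest ratios with the same sign in 8 of 8 mice were smaller. Strn, the scaffold striatin, had a median log2 ratio of 0.92, Tmem229a 0.85, Trim36 0.83, Aamdc 0.79, Cryzl1 0.79, Dpy19l1 0.77 and Snapc3 0.73. Erbin, Bex2, Sccpdh, Phlda3 and Arhgap21 had 0.63 to 0.70. Sccpdh (chr1:179668210-179687189, plus strand) was the most abundant of these, at 552 ± 75.2 CPM in many-gene wells, with a median log2 ratio of 0.64.

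The 12 lowest ratios included several genes of blood vessels. Pros1, the anticoagulant protein S (chr16:62854307-62929346, plus strand), was at 6.08, 6.65, 7.06, 18.5, 15.4, 76.8, 25.2 and 56.7 CPM in the many-gene wells of mice 1 to 8 and at 30.9, 35.7, 31.8, 85.5, 30.6, 89.3, 111.2 and 71.3 CPM in their single-cell sums. Each mouse had the lower value in its many-gene wells, with a median log2 ratio of -2.06. Ets1, an endothelial transcription factor, had -1.83, Anxa3 -1.77, the iron exporter Slc40a1 -1.70, the matrix protein Mgp -1.59, Lrrc32 -1.49 and the endothelial trafficking protein Nostrin -1.40. Lamb2, a laminin chain of vessel basement membranes, had -1.22, Ptrf, which builds caveolae, -1.20, and Hectd3, Mcf2l and Mus81 had -1.47, -1.22 and -1.17. Beside these genes, the endothelial list itself was lower in many-gene wells in 7 of 8 mice and the smooth muscle list in 7 of 8; their part in these ratios was not tested.

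**Figure D3:**
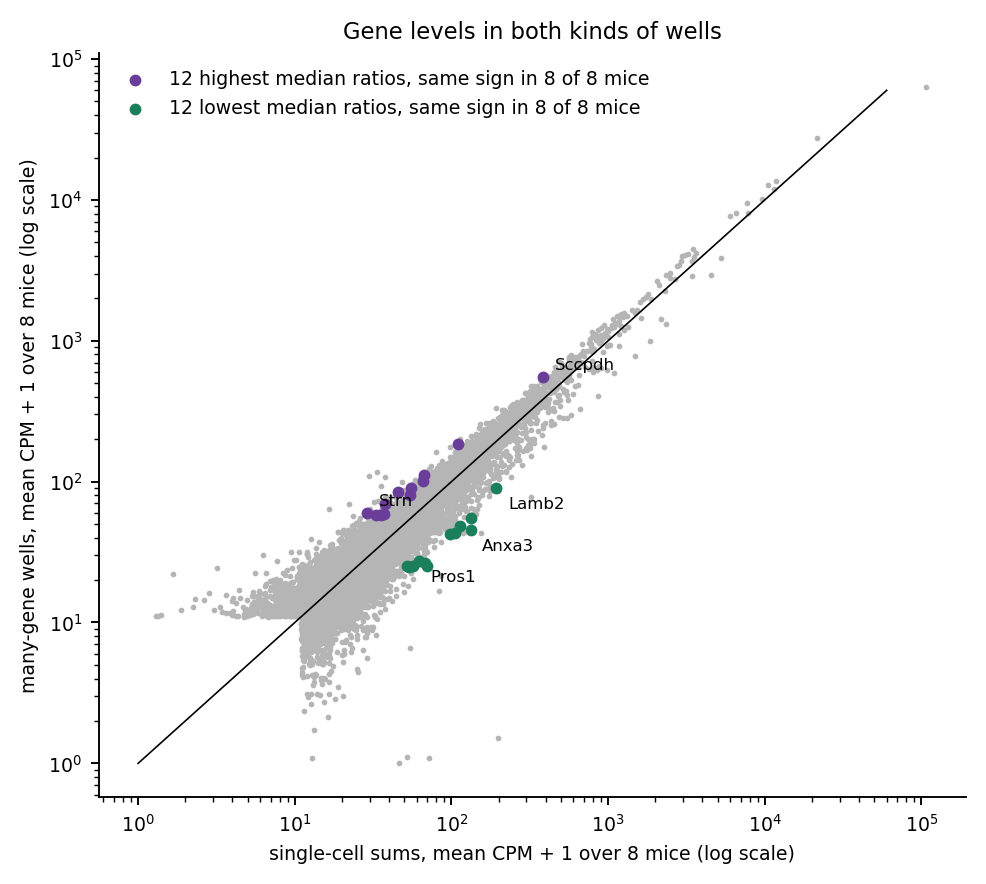
Mean CPM + 1 over 8 mice of 10059 genes in many-gene wells against single-cell sums, both axes logarithmic, with the line of equal level. Of the points named by their ratio, Sccpdh, at 552 CPM in many-gene wells, sits above the line and Lamb2, at 89.2 against 192.6 CPM, below it. Anxa3 lies farther below, at 44.6 against 131.4 CPM.

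Several gene lists kept nearly the same level in both kinds of wells. The 15 nuclear genes of the respiratory chain summed to 4860 ± 350.8 and 4639 ± 189.7 CPM (SD, n = 8), 14 ribosomal protein genes to 3041 ± 451 and 3031 ± 146.7 CPM, and 15 glycolysis genes to 3490 ± 550 and 3677 ± 690 CPM. Notch and BMP signalling genes, which act in stem cells and vessels, were lower in many-gene wells in 8 of 8 mice, at 1418 ± 434 against 1860 ± 641 CPM. The difference was very small in mouse 1 (1193 against 1205 CPM) and mouse 2 (1606 against 1623 CPM). The sterol synthesis list, used for myelin lipids and membranes, was at 1278 ± 181.3 and 1166 ± 171.5 CPM and higher in 6 of 8 mice.

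The mimic was compared with the control oligonucleotide over 4 mice a side, both wells of a mouse summed to 1152163 to 1870032 counts. No gene passed edgeR's quasi-likelihood test with Benjamini-Hochberg adjustment at 0.05 in the many-gene wells (0 of 10190, 0%), and the lowest adjusted p was 0.9998. An unadjusted p under 0.05 was reached by 2.34% of them. In the single-cell sums 0 of 15077 genes passed (0%), with 515 at an unadjusted p under 0.05, 3.42%. The difference between both responses, tested in 1 model as an interaction within mice, passed for 0 of 15837 genes (0%), with 414 at an unadjusted p under 0.05, 2.61%. DESeq2 called 1 of 10190 genes in the many-gene wells, 57 of 15077 in the single-cell sums and 84 of 15837 in the interaction. Without a filter on low counts edgeR called 25 of 19663, 81 of 31392 and 16 of 31899. In that many-gene fit 629 genes had an unadjusted p under 0.05, where 983 would be expected by chance. Of the 25, 11 belonged to the gene lists. They were the early-response genes Fos (adjusted p = 3.6e-08), Egr1 (2.99e-05), Junb (5.63e-05) and Jun (0.008), the class I genes H2-K1 (0.00183), B2m (0.00254) and H2-D1 (0.0496), the interferon-induced Ifit3 (0.00414) and Usp18 (0.037), the astrocyte marker Slc1a2 (0.000268) and Gpr17 (5.6e-05), which was lower in mimic mice. Each control mouse shared the prefix of its well names, L7 or L8, and its date with 1 mimic mouse, and with these 4 pairs as a block, chosen after the data were seen, edgeR with the filter called 0 genes in all 3 tests. The p-values measure the spread between these mice. The biological coefficient of variation was 0.687 in many-gene sums and 0.901 in single-cell sums.

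All 4 mimic mice lay above all 4 control mice for 140 of the 10190 genes (1.37%) and below them for 83 (0.815%). The genes below are the 15 of smallest p, and none passed the adjusted test with the filter. Without it Serpina3n (edgeR adjusted p = 5.54e-13), Egr1, Ctla2a (0.0348) and Pecr (0.0372) did. Pecr, a peroxisomal enzyme of fatty acid metabolism (chr1:72259167-72284314, minus strand), was at 0, 0, 8.07 and 3.22 CPM in control mice 1, 3, 5 and 7 and at 38.6, 43.1, 34.9 and 48.1 CPM in mimic mice 2, 4, 6 and 8. Each of the 8 mimic wells was above the highest control well. The log2 fold was 4.52 ± 1.12 (SE, edgeR unadjusted p = 0.0023, adjusted p = 0.9998), and it was the gene that DESeq2 called (adjusted p = 0.0294) and that limma voom on single wells called (adjusted p = 0.0253). The limma fit took wells as samples with mouse as block. Its estimated correlation between wells of a mouse was -0.0098, so the wells counted nearly as independent replicates. In the single-cell sums the log2 fold of Pecr was -0.13 ± 0.56.

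Other leading genes were expressed in vessels or astrocytes. Ramp2, a receptor partner for adrenomedullin in endothelium (chr11:101246028-101259546, plus strand), was at 36.45, 40.95, 99.8 and 132.4 CPM in control and 83.8, 107.5, 308.6 and 252.9 CPM in mimic mice. The groups overlapped over all 8 mice, while within each date both mimic mice were above both controls. Its log2 fold was 1.26 ± 0.25 in many-gene wells and 1.05 ± 0.34 in single-cell sums. Slco1c1, a thyroid hormone transporter of brain vessels and astrocytes, was at 183.4 ± 50.5 CPM in control and 388 ± 84.1 CPM in mimic mice (log2 fold 1.07 ± 0.25). Serpina3n, a secreted protease inhibitor known from reactive astrocytes, was at 15.6, 23.3, 15.4 and 0 CPM in control and 59.2, 285.5, 299.5 and 59.9 CPM in mimic mice. Its log2 fold was 3.82 ± 0.94 in many-gene wells and 1.88 ± 1.11 in single-cell sums. Without the filter on low counts its many-gene estimate was 3.81 ± 0.451, a similar fold with a smaller SE.

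The other genes with higher estimates had other roles. Msn, moesin, which ties actin to the membrane, was at 67.1 ± 10.4 and 164.1 ± 30.4 CPM (log2 fold 1.26 ± 0.27), with 0.12 ± 0.39 in single-cell sums. Gstz1, an enzyme of tyrosine breakdown, was at 21.6 ± 9.195 and 92.1 ± 22.2 CPM (2.06 ± 0.44, and -0.13 ± 0.30 in single-cell sums), and Grap, a signalling adaptor, at 19.6 ± 1.25 and 69.3 ± 22 CPM (1.78 ± 0.44, and -0.43 ± 0.47). Slc39a10, a zinc importer, was at 62.1 ± 14.1 and 135.6 ± 12.8 CPM, Aar2, a splicing factor, at 35.96 ± 10.9 and 100.5 ± 28.5 CPM, and Ctla2a at 19.7 ± 16.8 and 96.04 ± 64.5 CPM. Kirrel, an adhesion molecule, had 3 counts over all control mice and was at 19.3 CPM over all mimic mice, a ratio of 37.3 (exact counting interval 12.5 to 183.4, which treats reads as independent and leaves out the spread between mice). With so few control counts, Kirrel could pass the filter on low counts only through all mimic mice. Its separation of the groups therefore follows from the filter.

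Mief1, Ust and Rimkla were lower in mimic mice. Mief1, which recruits the division machinery to mitochondria, was at 26.04, 52.95, 58.7 and 50.4 CPM in control and 4.66, 2.05, 7.68 and 18.7 CPM in mimic mice (log2 fold -2.75 ± 0.68). Ust, a sulfotransferase of glycosaminoglycans, was at 50.7 ± 53.8 and 9.14 ± 11.1 CPM, with overlapping groups. Rimkla, which makes the neuropeptide N-acetylaspartylglutamate, had 68 counts in control mice and 0 in mimic mice, at least 24.5-fold lower against a floor of 3 counts over the group. It had a count in 4 of 16 wells. The filter on low counts required a minimum level in at least 4 mice. With 0 counts in mimic mice, Rimkla could be tested only because all 4 control mice had counts. Its separation of the groups therefore follows from the filter and is no support for a treatment difference.

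**Figure D4:**
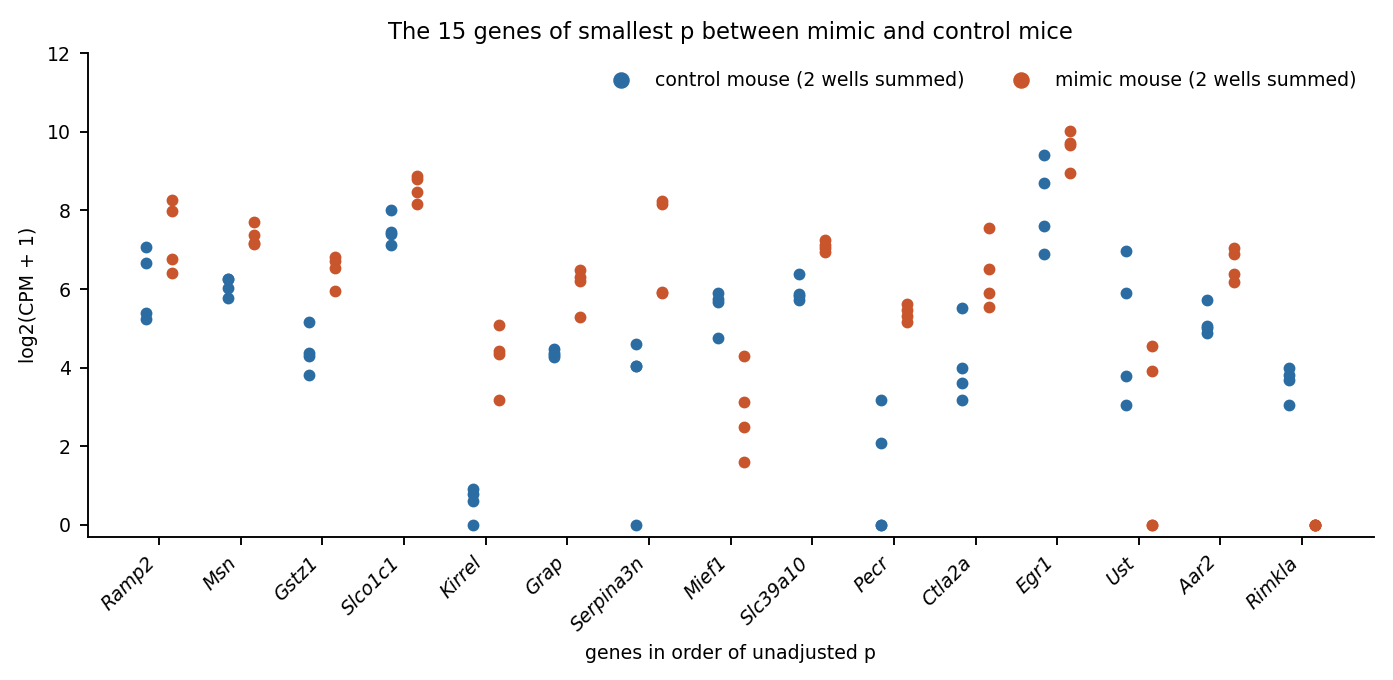
Level, as log2(CPM + 1), of the 15 genes of smallest unadjusted p in the many-gene wells, 1 point per mouse with both wells summed. Pecr, Kirrel and Rimkla separate the mice of both treatments, while Ramp2, Egr1 and Ust overlap. For Kirrel and Rimkla this separation follows from the filter on low counts.

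The 5 genes of smallest p in the interaction were Egr1, Ust, Abat, Grap and BC026585, none past the adjusted test (edgeR adjusted p = 1.0 each). Egr1, an early-response transcription factor, had a log2 fold of 1.41 ± 0.36 in many-gene wells and 0.27 ± 0.36 in single-cell sums, a difference of 1.10 ± 0.23. Abat, the enzyme that degrades GABA, had -1.39 ± 0.42 and 0.60 ± 0.26, a difference of -1.94 ± 0.43. For Grap the difference was 2.3 ± 0.53, for Ust -5.51 ± 1.15 and for BC026585 6.06 ± 1.43.

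Immediate early genes, which respond within minutes to stimulation and also to tissue dissociation, had mostly higher estimates in mimic mice. Of 17 members tested, 16 had a higher estimate in mimic mice, the median log2 fold was 1.37 against 0.02 for all genes, and 11 had an unadjusted p under 0.05 against 2.34% of all genes. With the filter on low counts none passed edgeR's adjusted test, and without it Fos, Egr1, Junb and Jun did. The summed level was 6687, 4581, 1639 and 1143 CPM in control mice 1, 3, 5 and 7 and 8006, 6335, 6746 and 4325 CPM in mimic mice 2, 4, 6 and 8. Control mice 5 and 7 of 19 April were far below the others, and mimic mouse 8 lay below control mice 1 and 3.

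Within 17 April the log2 ratio of the treatment means of that sum was 0.35, and within 19 April 1.99. In single-cell sums of the same mice it was 0.06 and 0.89, and mouse 7 was lowest there too, at 1630 CPM. All 17 members had a higher estimate in the single-cell sums, with a median log2 fold of 0.46 and 2 at an unadjusted p under 0.05 (all genes 3.42%). In the interaction 4 of 17 had an unadjusted p under 0.05 (all genes 2.61%).

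Fos, a subunit of the AP-1 transcription factor (chr12:85473890-85477273, plus strand), was at 2899, 1874, 575 and 120 CPM in control mice and 2947, 2205, 3088 and 1386 CPM in mimic mice. In single wells it ran from 1.02 CPM and 252.3 CPM in mouse 7 to 2998 and 3192 CPM in mouse 6. Jun, its partner, was at 596, 395, 171.8 and 137.8 CPM and at 602, 665, 568 and 680 CPM, and Egr1 ran from 116.9 CPM (mouse 7) to 685.7 CPM (mouse 1) in control and from 495 CPM (mouse 8) to 1037 CPM (mouse 4) in mimic mice. Arc, a synaptic immediate early gene, had the only lower estimate, with a log2 fold of -0.08 ± 0.56.

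Genes of antigen presentation on class I molecules were all higher in estimate, 10 of 10, with a median log2 fold of 1.03 and 3 at an unadjusted p under 0.05 (H2-K1, Tap1 and Psmb10; all genes 2.34%). None passed the adjusted test with the filter, and H2-K1, B2m and H2-D1 passed without it. The single-cell sums gave 10 of 10, a median of 0.97 and 5 at an unadjusted p under 0.05 (all genes 3.42%). The sum by mouse in many-gene wells was 2084, 721, 1018 and 1245 CPM in control and 873, 2340, 6328 and 2497 CPM in mimic mice. Mouse 6 was highest, in both of its wells (4984 and 7879 CPM), and mimic mouse 2 lay below 3 controls. Without mouse 6 the median was 0.45 and 9 of 10 estimates were higher, and without control mouse 5 the median was 0.65. H2-D1, the most abundant of these class I genes, was at 2553 CPM in mouse 6 and at 205.4 to 1125 CPM in the other mice. B2m, the light chain of class I molecules, was at 2143 CPM in mouse 6 and 248.5 to 855 CPM elsewhere.

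Interferon response genes had 12 of 12 higher estimates, a median log2 fold of 1.35 and 5 at an unadjusted p under 0.05 (all genes 2.34%). Of the 12, Ifit1 and Ifit3 were above all control mice in all mimic mice (all genes 1.37%), and Ifit3 and Usp18 passed the adjusted test without the filter only. The single-cell sums had 13 of 13 with a median of 1.19 and 3 at an unadjusted p under 0.05 (all genes 3.42%). Ifit3, an antiviral protein induced by interferon, was at 0, 8.47, 8.07 and 2.14 CPM in control and 26.6, 32.9, 181.5 and 24.6 CPM in mimic mice (log2 fold 3.56 ± 1.01). The list summed to 1987 CPM in mouse 6, 584.6 to 827 CPM in the other mimic mice and 335.3 to 763 CPM in control mice. Without control mouse 5 the median was 0.84, and the second well of each mouse alone gave 0.46 with 7 of 9 higher. The endothelial list, at 2328 ± 1469 CPM in control and 2894 ± 891 CPM in mimic mice (SD, n = 4), overlapped between treatments; its part in these differences was not tested.

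**Figure D5:**
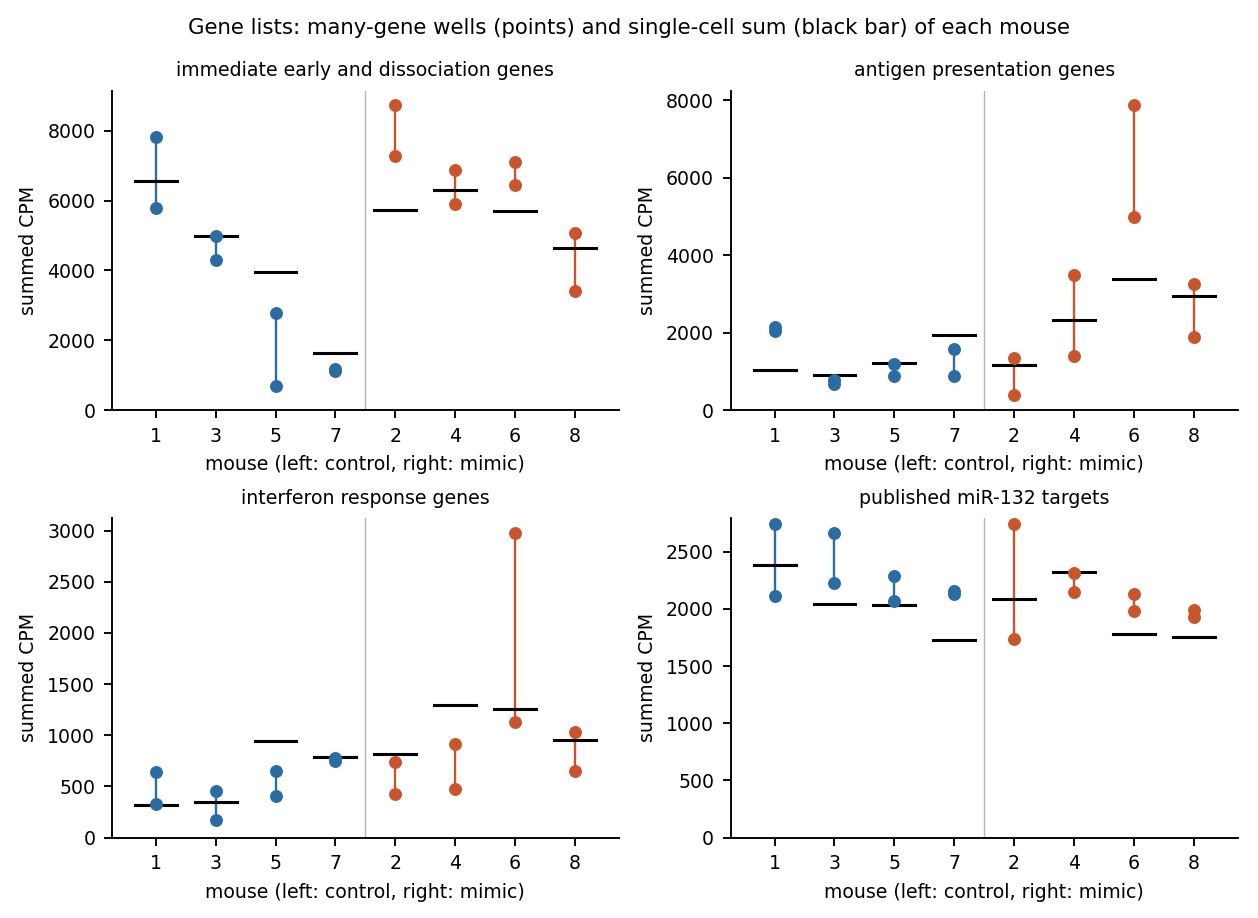
Summed CPM of 4 gene lists in the 2 many-gene wells (joined points) and the single-cell sum (black bar) of each mouse, control mice in blue and mimic mice in orange. Immediate early genes are lowest in control mice 5 and 7, antigen presentation and interferon genes are highest in mimic mouse 6, and published miR-132 targets overlap between treatments over all 8 mice.

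Published targets of miR-132 had mostly lower estimates, of small size. Of 17 members tested, 5 had a higher and 12 a lower estimate, with a median log2 fold of -0.22 and 1 unadjusted p under 0.05 (all genes 2.34%). That gene was Btg2, an antiproliferative early-response gene, which was higher in mimic mice (log2 fold 0.90 ± 0.33). Without each mouse in turn the list median was -0.21 to -0.12, and in the second well of each mouse alone it was -0.004 with 8 of 16 higher. The summed level was 2390, 2405, 2167 and 2143 CPM in control mice 1, 3, 5 and 7 and 2234, 2240, 2050 and 1953 CPM in mimic mice 2, 4, 6 and 8. Mimic mice were lower in each of the 4 pairs that share plate prefix and date, and within each date both lay below both controls (log2 ratios -0.10 and -0.11), while the groups overlapped over all 8 mice. In single-cell sums these log2 ratios were -0.005 and -0.09. The 4 pairs were chosen after the data were seen. Many-gene wells of 1 mouse could differ by more than the treatments did. They were at 1740 and 2737 CPM in mimic mouse 2 and at 2741 and 2109 CPM in control mouse 1. In control mouse 7 they were closer, at 2133 and 2155 CPM. No test was made of the summed level. The single-cell sums had 10 of 20 higher and a median of 0.00.

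Among the targets with sites printed above, Ep300 had a log2 fold of -0.14 ± 0.47, Foxo3 0.34 ± 0.54 and Zeb2 -0.08 ± 0.21, none past the test. Zeb2 was at 435.6 ± 92.5 CPM in control and 418.4 ± 49.2 CPM in mimic mice (SD, n = 4). Mapt, the microtubule protein tau, was the most abundant target, at 854, 792, 843 and 525 CPM and at 607, 706, 730 and 642 CPM (-0.18 ± 0.20). Both sets of mice overlapped for each of these genes.

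Genes with a site in the longest 3' UTR were close to all genes. In the many-gene wells the genes with the 8-base site GACTGTTA, 3.16% of those with a UTR, had a median log2 fold of 0.06, with 55.8% higher in mimic mice, against 0.02 and 51.7% for all 9759 genes with a UTR. The 1427 genes with the 7-base site GACTGTT had a median of 0.04, and the 8332 genes without it 0.01. In the single-cell sums the 8-base set had a median of 0.00 (380 genes) and all genes 0.01. UTRs with the 8-base site were longer, with a median of 2552 bases against 1477 bases for all.

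Other lists are described by their counts. Of 18 myelin genes, 2 had a higher estimate in mimic mice (median log2 fold -0.19). The sphingolipid enzymes Ugt8a and Fa2h were below all control mice in all mimic mice (all genes 0.815%). Single-cell sums had 0 of 18 higher and a median of -0.21. Without mimic mouse 2 the median in many-gene wells was -0.03 with 7 of 18 higher, and the log2 ratio of the summed level was -0.34 on 17 April and 0.10 on 19 April. Of 16 sterol synthesis genes tested, 2 were higher (median -0.38), with 1405 ± 108.5 CPM in control and 1150 ± 146.3 CPM in mimic mice; single-cell sums had 10 of 17 higher (median 0.01). Basement membrane genes, laid down by vessels, were higher in estimate in 12 of 13 (median 0.70; 9 of 14 and 0.17 in single-cell sums). That median was 0.22 without control mouse 3, 0.43 without mimic mouse 2 and 0.39 with 9 of 13 higher by limma voom on single wells, and the log2 ratio of the sum was 1.32 on 17 April and -0.08 on 19 April.

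The 4 neurotrophin and receptor genes tested were all lower in estimate (median -0.57), and Bdnf, a neurotrophin of neurons, had a count in 2 of 16 wells. Heat shock genes had 5 of 8 higher (median 0.10), glycolysis genes 7 of 14 (0.01), respiratory chain genes 6 of 15 (-0.08), ribosomal protein genes 3 of 14 (-0.12) and long non-coding RNAs 5 of 6 (0.34). Stem cell quiescence genes had 15 of 19 higher (0.21), Notch and BMP genes 15 of 23 (0.30) and cell cycle genes 4 of 6 (0.62). None of these members passed edgeR's adjusted test, with or without the filter. Leaving out 1 mouse turned the sign of the median for heat shock, glycolysis, ribosomal protein, cell cycle and Notch and BMP genes. The second well of each mouse alone turned it for stem cell quiescence genes (-0.20, 8 of 17 higher) and glycolysis genes (-0.24), and the first well alone for respiratory chain genes (0.05). Without mimic mouse 2 the quiescence median was 0.06, with 10 of 19 higher.

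The 10 genes that led an earlier test over all kept wells, these 16 included, were chosen on the same mice and are no independent evidence. In single-cell sums 10 of 10 had an unadjusted p under 0.05 (all genes 3.42%), with a median log2 fold of 1.44. In the many-gene wells 1 of 9 did (all genes 2.34%), with a median of 0.38, and -0.53 in the second well of each mouse alone. Over both wells Vwa1, a matrix protein of vessel walls, had a log2 fold of 0.75 ± 0.33 (single-cell sums 1.18). Sox17, an endothelial transcription factor, was at 81.6, 11.3, 58.7 and 53.1 CPM in control and 45.9, 39.7, 106.1 and 86.6 CPM in mimic mice, a log2 fold of 0.32 ± 0.55 beside 1.95 in single-cell sums. Id1, a target of BMP signalling, had 0.23 ± 0.30 beside 1.48. In the interaction 2 of these 10 genes, Spock2 and Id1, had an unadjusted p under 0.05 (all genes 2.61%). The genes were chosen in part by their levels in the single-cell wells, so these counts are no test of a difference between the kinds of wells.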

How the data were processed

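Full-length Smart-seq2 libraries of 768 wells from 8 mice were read as the gene count table deposited by the authors, with 32679 genes and no molecular identifiers. The submitters' processing notes name FastQC, STAR, Subread, featureCounts 1.5.1, Seurat 2.3.1 and the build mm10, and settings are not given in the sources used here. Wells were assigned to mice by the sample descriptions. Counts of both many-gene wells (1152163 to 1870032 per mouse) and of the single-cell wells (42428800 to 65027554) were summed per mouse, which was the replicate.

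Treatment and the interaction were tested with edgeR 4.0.16 (R 4.3.3), quasi-likelihood, TMM factors, filterByExpr and sort date as covariate, at an adjusted p of 0.05. DESeq2 1.42.0, limma 3.58.1 voom, RLE factors, no filter, no date, each well alone and leaving out each mouse were alternatives, and a block of plate prefix with date was added after the data were seen. The edgeR test was also run on simulated counts with 50 genes changed at each fold. In the many-gene wells it recovered 8% of 2-fold, 20% of 4-fold, 50% of 8-fold and 74% of 16-fold changes. In the single-cell sums it recovered 0%, 32%, 46% and 56%, so most changes of 2-fold or 4-fold were missed. False calls numbered 1 in the many-gene wells and 2 in the single-cell sums. Each simulation was 1 run without a date effect, with negative binomial counts at the estimated dispersion of each gene. Recovery in the real data may therefore differ. CPM used all counts of a well or sum, and log2 ratios 1 CPM as pseudocount. Named genes were the 15 of smallest p (5 for the interaction), the 12 highest and lowest ratios at 50 CPM, the 5 most variable between wells at 100 CPM, and for each list the leading members. Some list members, the rarest genes and the 4 higher genes were named after their values were seen. The wells and lists were chosen with earlier results of these data known. Marker and function lists without a result in the text were tabulated, with no gene past edgeR's adjusted test with the filter.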

Additional observations from a re-analysis of the deposited data

Results flagged for a closer look

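Of 42 groups of 4 mice examined, 2 had a mouse far from the other 3 (gap over range above Dixon's limit of 0.829), and chance flags about 1 in 20 groups. Aar2 in control mouse 1 was at 52.1 CPM, with the other control mice at 28.4 to 32.3 CPM. The wells of mimic mouse 8 averaged 935000 counts, the highest of the mimic mice.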

How the results depend on the processing

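Changes under other settings are given here, and in each case the cause was not tested unless stated. Genes called for the mimic in many-gene wells (0) became 1 of 10190 with DESeq2, 25 of 19663 without a filter and 1 of 7933 with limma voom on single wells. In single-cell sums (0) they became 57 of 15077 with DESeq2 and 81 of 31392 without a filter, and in the interaction (0) 84 of 15837 and 16 of 31899. All other settings run, leaving out each mouse and a block of plate prefix with date included, gave 0 for these 3 tests. Of the 25 genes, 21 were also tested with the filter. Genes lower in many-gene wells in every mouse, 0.616% of those compared (62), became 0.926% with cells weighted equally, 0.675% at a mean of 1 CPM, 0.388% with a pseudocount of 5 CPM and 1.16% with TMM scaling, and genes higher (0.0398%) became 0.0199% with TMM scaling. Leaving out a mouse gave 0.0891% to 0.139% higher and 0.745% to 1.09% lower, where 7 mice instead of 8 had to share the sign.

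The endothelial r was 0.806 centred within dates and 0.811 as a mean of log2 values, and 0.893 to 0.955 without a mouse. The first 2 of these did not pass after adjustment (exact permutation, adjusted p = 0.181 and 0.191). Leaving out a mouse turned the sign for lists that did not pass: committed oligodendrocyte precursor -0.341 to 0.0792, neuroblast -0.0189 to 0.396, smooth muscle -0.423 to 0.628, fibroblast -0.0395 to 0.483, microglia -0.0592 to 0.64, and ependymal and choroid plexus -0.505 to 0.127. The reading of wells by sample titles could not be run for the many-gene wells and the interaction, since 1 control mouse is left. No paired analysis was possible by replicate number because control and mimic mice share none, and the block of plate prefix with date was chosen after the data were seen. Depth limits genes near 1 count per well, and 4 mice a side limit every treatment test.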
